A study of Mus musculus with 11 samples.

Results

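Small leucine-rich proteoglycans are secreted matrix proteins, and 10 genes of the family were described here out of 20368 gene symbols in the expression tables. The 10 genes are Dcn, Bgn, Aspn, Fmod, Prelp, Omd, Lum, Kera, Ogn and Epyc. They were chosen by name as members of the family. Their expression was taken as the FPKM (fragments per kilobase, relative to all mapped fragments) summed over the coding sequences of each symbol. Chromatin data were taken as the peaks and domains within 30 kb of each deposited locus. The study used C2C12, an established mouse myoblast line of C3H origin, to ask how RNA made at enhancers acts in muscle differentiation.

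PolyA RNA was sequenced 4 h after the change to medium with 2% horse serum and insulin, transferrin and selenium. The DRRi library came from cells with RNAi against the enhancer RNA of the distal regulatory region (DRR) of the MyoD gene, and the GFPi library from cells with RNAi against GFP. The pHAN_DRR1.2 library came from cells that overexpressed the DRR RNA, and the pHAN_GFP library from cells that overexpressed GFP. Chromatin immunoprecipitation with sequencing gave peaks of the muscle transcription factor MyoD in myotubes at 48 h and in growing myoblasts in 10% fetal bovine serum. It also gave MyoG peaks, for the factor of terminal differentiation, in myotubes. Domains of the enhancer-associated mark H3K4me1 were called in myotubes and in myoblasts. Every group was 1 library without replicates, and no difference given here has a replicate check. All results come from 1 cell line in culture. The DRR RNA is not among the coding sequences of the tables, so its own level could not be used to check the labels. In such bulk samples, fewer cells expressing a gene and less RNA per cell cannot be told apart.

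Proteins of this family carry a curved domain of leucine-rich repeats, and several carry chondroitin, dermatan or keratan sulphate chains. They bind collagen fibrils and limit their thickness, and some also bind growth factors such as TGF-β and myostatin. The family is divided into classes by sequence. Class I holds decorin (Dcn), biglycan (Bgn) and asporin (Aspn), class II holds fibromodulin (Fmod), Prelp, osteomodulin (Omd), lumican (Lum) and keratocan (Kera), and class III holds osteoglycin (Ogn) and epiphycan (Epyc). In skeletal muscle, decorin and fibromodulin are known as binding partners of the muscle growth inhibitor myostatin. Biglycan binds the dystrophin-associated complex of the fibre membrane.

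The 10 genes lie in linked clusters, apart from Bgn on chromosome X (mm9, 70728973 to 70741275). On chromosome 10, Dcn (96942133 to 96980796), Lum (97028134 to 97035337), Kera (97069838 to 97076322) and Epyc (97106701 to 97429724) follow one another with gaps of 47.3, 34.5 and 30.4 kb. Chromosome 1 holds Prelp (135806881 to 135817978) and Fmod (135934091 to 135944854), 116 kb apart, and Myog, the gene of MyoG, begins 242 kb past Fmod. On chromosome 13 the tables give Ogn, Omd and Aspn 1 shared locus (49559427 to 49748100), which they also give to Ecm2 and Cenpp. The 10 genes thus have 8 distinct loci. In the RefSeq annotation, Ecm2, Aspn, Omd and Ogn lie in this order on the plus strand inside Cenpp, which runs on the minus strand. The sources used here do not say whether reads were counted by strand, so reads from Cenpp and from the genes inside it may not be fully separated.

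Promoter windows of the 4 genes that reached a mean of 1 FPKM in both experiments are shown, since these are the members whose changes can be read in both. Each is the 250 bases before the annotated start, from RefSeq (GRCm38.p6, a later build than the mm9 of the peaks), written 5′ to 3′ on the gene's strand. The windows are chrX:73483351-73483600 on the plus strand for Bgn, chr13:49607765-49608014 on the plus strand for Ogn, chr1:134037004-134037253 on the plus strand for Fmod and chr1:133921402-133921651 on the minus strand for Prelp. Capitals mark CANNTG, the E-box core that MyoD and MyoG can bind.
Bgn: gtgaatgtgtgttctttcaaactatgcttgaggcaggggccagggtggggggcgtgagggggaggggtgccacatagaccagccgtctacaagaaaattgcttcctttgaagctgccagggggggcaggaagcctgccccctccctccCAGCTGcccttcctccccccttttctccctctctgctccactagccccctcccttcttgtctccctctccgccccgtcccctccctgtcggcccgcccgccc
Ogn: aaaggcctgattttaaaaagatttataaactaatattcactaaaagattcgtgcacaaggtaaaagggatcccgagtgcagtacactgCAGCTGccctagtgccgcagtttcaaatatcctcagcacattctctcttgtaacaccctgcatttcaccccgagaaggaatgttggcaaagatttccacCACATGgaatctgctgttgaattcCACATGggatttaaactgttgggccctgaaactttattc
Fmod: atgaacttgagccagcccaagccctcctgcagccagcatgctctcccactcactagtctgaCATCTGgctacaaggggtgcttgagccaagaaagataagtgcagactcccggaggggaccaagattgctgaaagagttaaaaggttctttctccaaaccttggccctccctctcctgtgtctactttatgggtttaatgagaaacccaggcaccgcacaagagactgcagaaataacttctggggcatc
Prelp: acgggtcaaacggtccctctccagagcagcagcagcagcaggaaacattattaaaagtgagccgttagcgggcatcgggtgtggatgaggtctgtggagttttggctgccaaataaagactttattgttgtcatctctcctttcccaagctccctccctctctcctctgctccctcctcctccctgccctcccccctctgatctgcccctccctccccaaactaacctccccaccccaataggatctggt
Bgn held 1 E-box, CAGCTG, ending 96 bases before the start, and Ogn held CAGCTG at 156 bases and CACATG at 57 and 33 bases. Fmod held 1 CATCTG at 183 bases, and Prelp held no CANNTG in its window.

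Of the 10 genes, 8 matched the RefSeq promoter table, with 9 windows because Epyc has 2 annotated starts. CANNTG was present for 5 of the 8 genes, Bgn, Ogn, Fmod, Aspn and Epyc, and in 66.2% of all 32851 promoter windows. CAGCTG was present for 2, Bgn and Ogn, and in 13% of all windows. CAGGTG, searched also as its reverse complement CACCTG, was found for 0 of the 8 and in 17.2% of all windows. CANNTG and CAGCTG read the same on both strands, and both narrower motifs are also counted under CANNTG. A match is only a description of the letters.

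Bgn and Ogn were the abundant family members in all 4 libraries. Bgn had 301 FPKM in DRRi, 246 FPKM in GFPi, 625 FPKM in pHAN_DRR1.2 and 754 FPKM in pHAN_GFP. Ogn, a class III proteoglycan first described in bone, had 46.5 FPKM in DRRi, 72.8 FPKM in GFPi, 499 FPKM in pHAN_DRR1.2 and 862 FPKM in pHAN_GFP. In pHAN_GFP, Ogn ranked 41 and Bgn 57 from the top of all gene symbols by FPKM, and in GFPi they ranked 953 and 228. Prelp, thought to link basement membranes to collagen, followed in the pHAN libraries at 20.1 FPKM in pHAN_DRR1.2 and 35.9 FPKM in pHAN_GFP. Omd, Fmod, Aspn and Dcn lay between 3.02 and 12.4 FPKM in these 2 libraries and between 0.102 and 1.26 FPKM in DRRi and GFPi. Lum, a keratan sulphate proteoglycan of cornea and other connective tissue, was at 0.0292 FPKM in pHAN_DRR1.2 and 0.0295 FPKM in pHAN_GFP, and was listed at 0 in DRRi and GFPi. Kera, known from the cornea, and Epyc, known from cartilage, were listed at 0 in all 4 libraries. With 1 library per group the order of neighbouring levels has no replicate check.

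**Figure D1:**
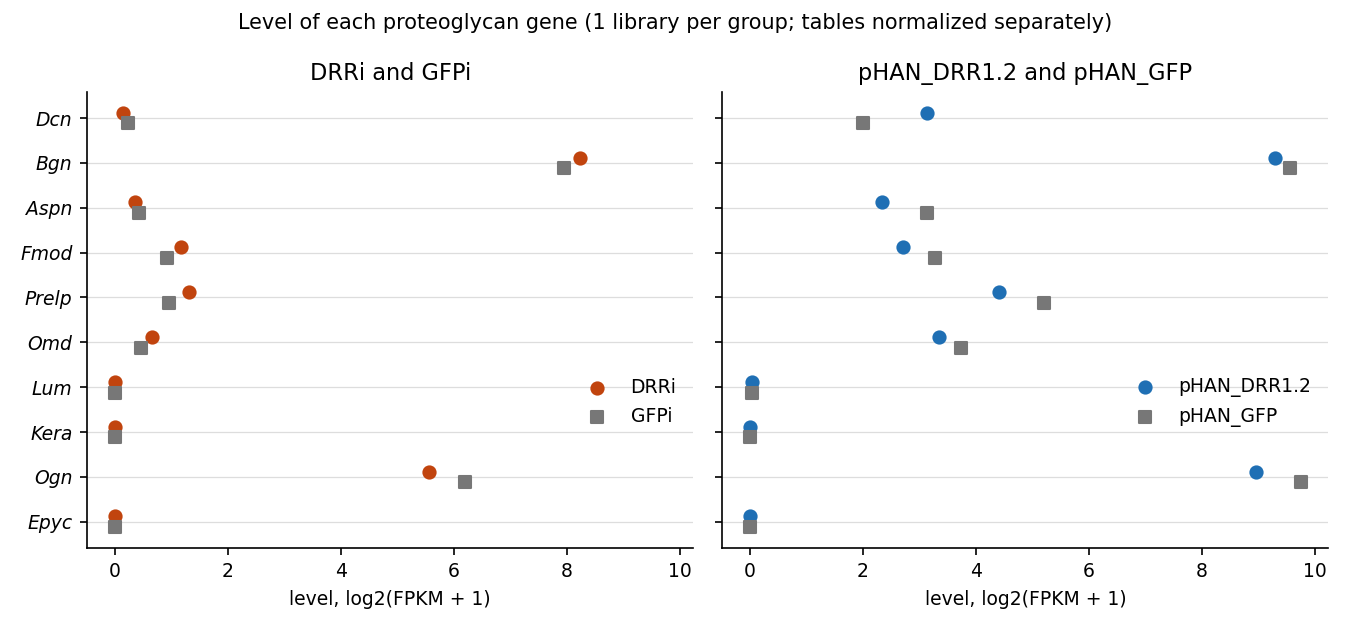
Level of each proteoglycan gene as log2(FPKM + 1), with 1 point per library, DRRi (circles) and GFPi (squares) on the left and pHAN_DRR1.2 (circles) and pHAN_GFP (squares) on the right. Bgn and Ogn stand far above the others in each library, and Lum, Kera and Epyc sit at or near 0.

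The first question was what overexpression of the DRR RNA did to the family. Of the 10 genes, 7 reached a mean of 1 FPKM over both libraries, the filter applied to every gene of the table. Dcn was higher in pHAN_DRR1.2 and the other 6, Prelp, Aspn, Ogn, Fmod, Omd and Bgn, were lower. Changes are log2 ratios of FPKM + 1, which makes the changes of low genes look smaller. The median of the 7 was -0.58, against 0.02 over all 10699 genes kept, and 90% of those genes lay between -0.24 and 0.32. Values below 0 were found for 6 of the 7 and for 44.4% of all genes kept. A change of 1.5-fold or more on this scale was reached by 1 of the 7 in the higher direction, Dcn, against 1.38% of all genes. It was reached by 3 of the 7 in the lower direction, Prelp, Aspn and Ogn, against 0.654% of all genes. At 2-fold or more, Dcn remained, against 0.318% of all genes, and 0 members were lower, against 0.0841%.

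Dcn, the class I proteoglycan that binds TGF-β, had 7.78 FPKM in pHAN_DRR1.2 and 3.02 FPKM in pHAN_GFP, a 2.57-fold ratio and a log2 change of 1.13. It ranked 23 from the top among the 10699 genes by change. Bgn, the most closely related class I member, had 625 FPKM in pHAN_DRR1.2 and 754 FPKM in pHAN_GFP (-0.27), just outside the middle 90% of genes. Aspn, the third class I member, had 4.09 FPKM in pHAN_DRR1.2 and 7.82 FPKM in pHAN_GFP (-0.79), the value of rank 29 from the bottom. Class I therefore held both the highest change of the family and a gene near its lowest, Aspn. For Aspn, however, the authors' deposited table gave p = 0.857.

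Among class II members, Prelp had 20.1 FPKM in pHAN_DRR1.2 and 35.9 FPKM in pHAN_GFP, a change of -0.80 and rank 27 from the bottom. Fmod, which regulates fibril growth in tendon, had 5.53 FPKM in pHAN_DRR1.2 and 8.73 FPKM in pHAN_GFP (-0.58), rank 73 from the bottom. Its ratio of FPKM was 1.58-fold, but it fell just short of 1.5-fold with the pseudocount of 1 and passed with 0.1 (-0.65). Omd, a keratan sulphate proteoglycan of bone, had 9.24 FPKM in pHAN_DRR1.2 and 12.4 FPKM in pHAN_GFP (-0.39). In class III, Ogn had 499 FPKM in pHAN_DRR1.2 and 862 FPKM in pHAN_GFP, a change of -0.79 and rank 31 from the bottom. All 3 genes of the chromosome 13 cluster and both genes of the chromosome 1 pair were lower in pHAN_DRR1.2, while Dcn on chromosome 10 was higher.

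In the authors' deposited table, Lum, Kera and Epyc had no test. Of the other members, a q-value under 0.05 was given to 1 in the higher direction, Dcn (q = 0.00849), against 1.01% of all genes with a test. It was given to 1 in the lower direction, Prelp (q = 0.000752), against 0.627%. For Ogn the authors' deposited table gave p = 0.00117 and q = 0.0718, and for Fmod it gave p = 0.00593 and q = 0.248. The authors' deposited table gave p = 0.857 for both Aspn and Omd and q = 1.00 for Bgn. Each of these values rests on 1 library per condition.

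The second question was how the family stood after RNAi against the DRR RNA. Here 4 of the 10 genes reached the filter, Bgn, Ogn, Prelp and Fmod, and the last 2 were under 1 FPKM in GFPi and passed through their level in DRRi. Ogn was the 1 member that was 1.5-fold or more lower, against 3.5% of all 10577 genes, and 0 members were 1.5-fold or more higher, against 4.66%. The count of 0 depends on the pseudocount, since Prelp had a ratio of FPKM of 1.56 and passed with a pseudocount of 0.1 (0.59). At 2-fold or more there were 0 members in either direction, against 0.898% of all genes higher and 0.804% lower. The median of the 4 was 0.27, against 0.02 over all genes kept, and its direction was not stable, at 0 over all 10 genes with no filter and -0.17 over the 2 genes averaging at least 5 FPKM. Of all genes kept, 90% lay between -0.51 and 0.57.

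Ogn had 46.5 FPKM in DRRi and 72.8 FPKM in GFPi, a log2 change of -0.64, and ranked 313 from the bottom of 10577 genes. Prelp had 1.49 FPKM in DRRi and 0.958 FPKM in GFPi (0.35). Fmod had 1.26 FPKM in DRRi and 0.903 FPKM in GFPi (0.24). Bgn had 301 FPKM in DRRi and 246 FPKM in GFPi (0.29). Prelp, Fmod and Bgn thus lay inside the middle 90% of genes and Ogn outside it. Omd (0.571 FPKM in DRRi and 0.387 FPKM in GFPi), Aspn (0.281 and 0.348 FPKM) and Dcn (0.102 and 0.179 FPKM) were too low to be set against the other genes. In the authors' deposited table, Dcn, Lum, Kera and Epyc had no test in the RNAi experiment. Of the other members, 0 were given a q-value under 0.05, against 0.729% (higher) and 0.609% (lower) of all genes with a test. For Ogn the authors' deposited table gave p = 0.0273 and q = 0.524.

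**Figure D2:**
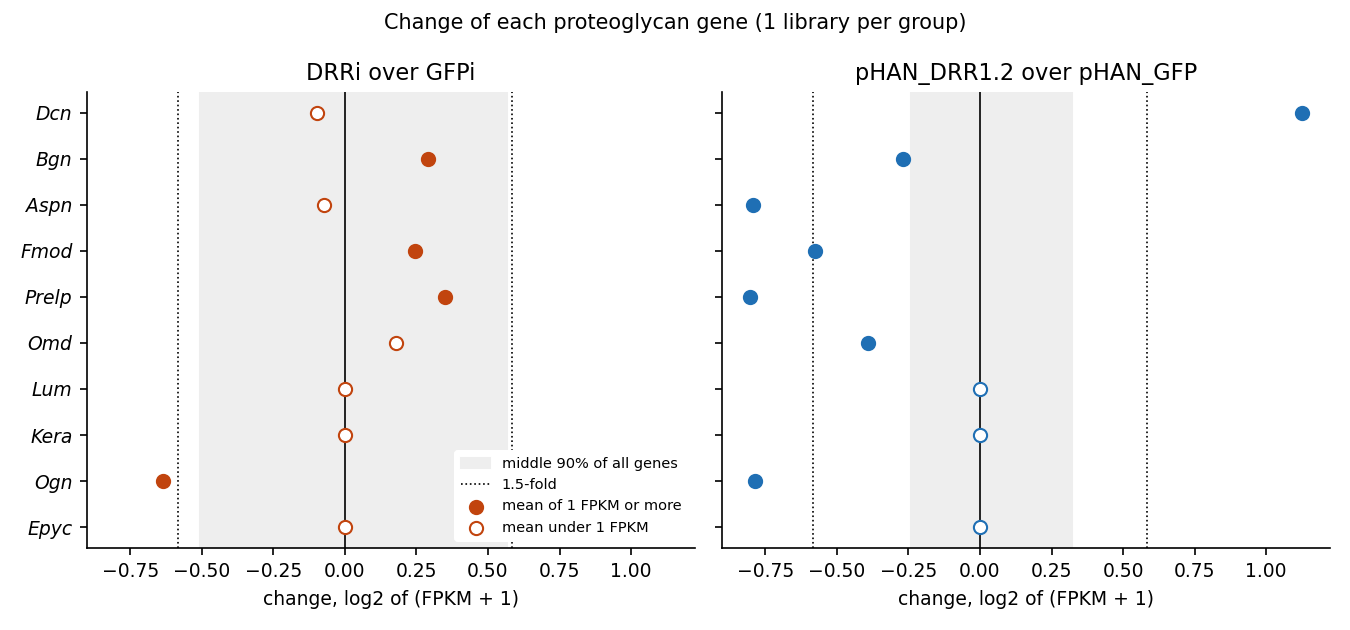
Change of each proteoglycan gene as log2 of the FPKM + 1 ratio, DRRi over GFPi on the left and pHAN_DRR1.2 over pHAN_GFP on the right, with filled points for a mean of 1 FPKM or more, open points for a lower mean, grey for the middle 90% of all genes and dotted lines at 1.5-fold. On the right Dcn stands at 1.13 and 6 filled points lie between -0.80 and -0.27, and on the left Ogn alone passes 1.5-fold at -0.64.

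The 2 GFP control libraries differed in these genes by more than either treatment moved them. The tables were normalized separately, so this is a side by side reading with no test. The 7 genes compared were those at 1 FPKM or more in pHAN_GFP, and all stood higher there than in GFPi. Prelp had 35.9 FPKM in pHAN_GFP and 0.958 FPKM in GFPi, a log2 difference of 4.24, the highest of 10658 genes that averaged at least 1 FPKM over the 2 controls. Ogn had 862 FPKM in pHAN_GFP and 72.8 FPKM in GFPi (3.55), and 4 genes, itself included, stood as high. Omd differed by 3.27, Aspn by 2.71, Fmod by 2.35, Dcn by 1.77 and Bgn by 1.61. The median over all genes was -0.04, and 51 genes, or 0.479%, reached a log2 difference of 2. Those 51 include 5 of the 7 proteoglycan genes, Prelp, Ogn, Omd, Aspn and Fmod. Prelp, Fmod, Omd, Aspn and Dcn were under 1 FPKM in GFPi and passed the filter only through pHAN_GFP, where they are high. Their direction was therefore fixed by the filter, and their place in the upper tail was partly set by it. Only Ogn and Bgn were above 1 FPKM in both controls.

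**Figure D3:**
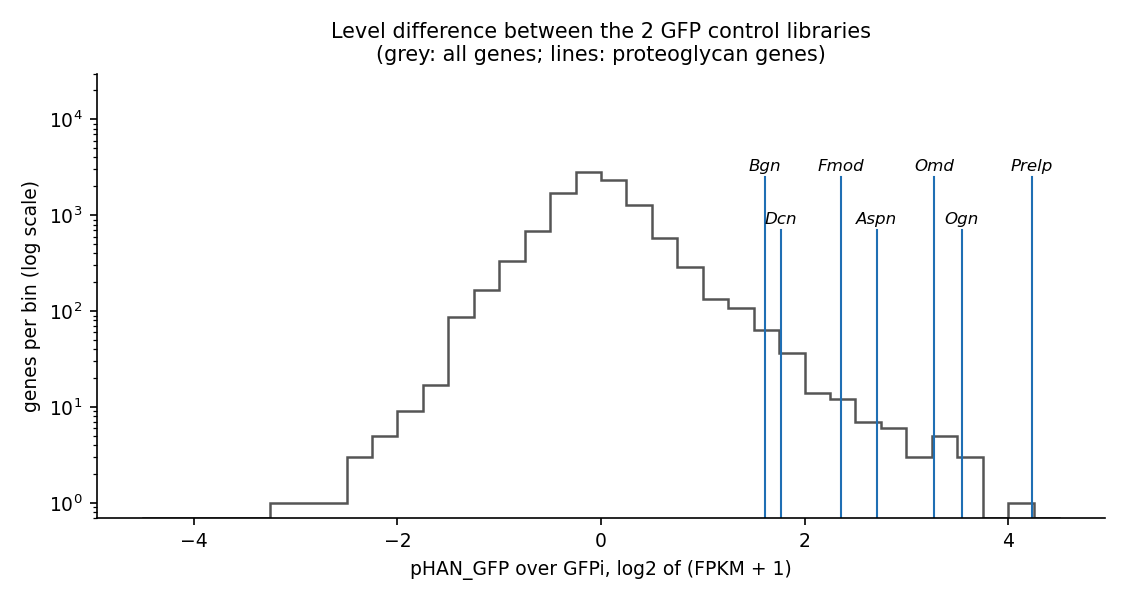
Number of genes (log axis) by the log2 difference in FPKM + 1 of pHAN_GFP over GFPi, for genes averaging at least 1 FPKM over both, with a vertical line at each of 7 proteoglycan genes. The lines stand from 1.61 (Bgn) to 4.24 (Prelp), in the upper tail of the outline for all genes.

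Markers of muscle and of other cells were read beside these differences. All 6 of 6 muscle markers, Myod1, Myf5, Myog, Des, Cdh15 and Chrna1, reached 1 FPKM in each library, and their summed level was 395 FPKM in DRRi, 467 in GFPi, 1014 in pHAN_DRR1.2 and 808.5 in pHAN_GFP. Summed fibroblast markers stood at 681 FPKM in DRRi, 801 in GFPi, 1541 in pHAN_DRR1.2 and 1533 in pHAN_GFP, with 4, 4, 4 and 5 of 7 genes at 1 FPKM or more. Most of each sum came from Col1a2 (217 to 300 FPKM over the 4 libraries), Col3a1 (160 to 450 FPKM) and Fn1 (266 to 852 FPKM), while Pdgfra was between 0.774 and 1.65 FPKM, Thy1 at or under 0.0186 FPKM and Tcf21 listed at 0 in all 4. Summed tendon markers (Scx, Tnmd, Mkx and Thbs4) were 17.5, 18.5, 28.5 and 29.3 FPKM in DRRi, GFPi, pHAN_DRR1.2 and pHAN_GFP, and Scx was the 1 of 4 that reached 1 FPKM. In the same order of libraries, summed cartilage markers were 7.37, 5.87, 15.6 and 12.4 FPKM, bone markers 13.7, 13.3, 10.1 and 10.3, cornea and eye markers 7.64, 11.9, 13.5 and 12.8, and adipocyte markers 10.3, 10.4, 7.83 and 7.68. Muscle, fibroblast, tendon, cartilage and cornea and eye sums were thus higher in both pHAN libraries than in DRRi and GFPi, and bone and adipocyte sums were lower. Most of the cartilage sum came from Sox9, of the cornea and eye sum from Aldh3a1, of the bone sum from Runx2 and of the adipocyte sum from Pparg. These sums, like the tendon sum, thus mostly follow 1 gene each. Pax6 of the eye list went the other way, at 0.291 FPKM in pHAN_DRR1.2 and 0.436 in pHAN_GFP against 0.607 in DRRi and 0.767 in GFPi. Within the muscle list Myf5, the early myogenic factor, was lower in both, at 10.7 FPKM in pHAN_DRR1.2 and 8.75 FPKM in pHAN_GFP, against 18.4 FPKM in DRRi and 15.1 FPKM in GFPi. The part of other cells or of the differentiation stage in the proteoglycan levels was not tested.

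Near the genes of the family, MyoD peaks were present in myotubes for 9 of the 10 genes, against 68.1% of all gene loci, and in myoblasts for 7, against 48%. MyoG peaks were present for 6 of the 10, against 65.4%. H3K4me1 domains were present for 9 in myotubes, against 76.8% of loci, and for 9 in myoblasts, against 78.7%. Ogn, Omd and Aspn share a locus and are counted with the same peaks, so over the 8 distinct loci the counts were 7 and 5 for MyoD in myotubes and myoblasts and 4 for MyoG. Wider loci take in more sequence, and density per 100 kb of window is therefore given as well. The peaks fell into 2 kinds of region, the Prelp and Fmod pair, the chromosome 13 cluster and Bgn with many peaks, and the chromosome 10 cluster with few.

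Prelp was the densest, with 8 MyoD peaks in myotubes, 7 in myoblasts and 7 MyoG peaks within 30 kb. Its 9.85 MyoD peaks per 100 kb in myoblasts exceeded 99.9% of all loci, and its 11.3 in myotubes exceeded 97.6%. Fmod had 6 MyoD peaks in myotubes, 3 in myoblasts and 6 MyoG peaks, at 8.48 per 100 kb for MyoD in myotubes, above 92.8% of loci. Within 10 kb of Fmod, however, there were 0 MyoD peaks in myotubes, 0 in myoblasts and 2 MyoG peaks. Bgn had 7 MyoD peaks in myotubes (9.68 per 100 kb, above 95.4% of loci), 2 in myoblasts and 3 MyoG peaks. Of its MyoD myotube peaks, 3 lay within 10 kb. The shared Ogn, Omd and Aspn locus had 16 MyoD peaks in myotubes, 12 in myoblasts and 13 MyoG peaks, at 6.43, 4.83 and 5.23 per 100 kb. Its myoblast density lay above 96.6% of loci and its myotube density above 86.3%. Over all loci the median was 1.60 MyoD peaks per 100 kb in myotubes and 0 in myoblasts.

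The chromosome 10 cluster held few peaks. Dcn had 2 MyoD peaks in myotubes, 1 in myoblasts and 0 MyoG peaks, at 2.03 MyoD peaks per 100 kb in myotubes, above the median of all loci and under their upper quartile of 4.35. Lum had 1 MyoD peak in myotubes, Epyc had 1 in its long locus, and Kera had 0 in every list. No MyoG peak lay within 30 kb of any of the 4 genes. The 3 MyoD myotube peaks of this cluster scored between 70.6 and 173, all under the median score of the list, 175. Its 1 MyoD myoblast peak, inside Dcn, scored 236, above the median of that list, 162. The myoblast density at Dcn lay above 60.6% of loci.

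H3K4me1 coverage also set the chromosome 10 loci apart from the other 4. Dcn lay above the median of all loci for MyoD density but below it for H3K4me1 coverage. Domains covered 65.4% of the Prelp window in myotubes and 50.9% in myoblasts, 57.6% and 44.4% of the Fmod window, 52.9% and 41.0% of the Bgn window and 44.1% and 38.4% of the Ogn, Omd and Aspn window. They covered 6.89% of the Dcn window in myotubes and 6.69% in myoblasts, and 0% of the Kera window at both stages. The median over all loci was 10.8% in myotubes and 10.0% in myoblasts. The chromosome 10 loci thus lay below this median and the other 4 above it.

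**Figure D4:**
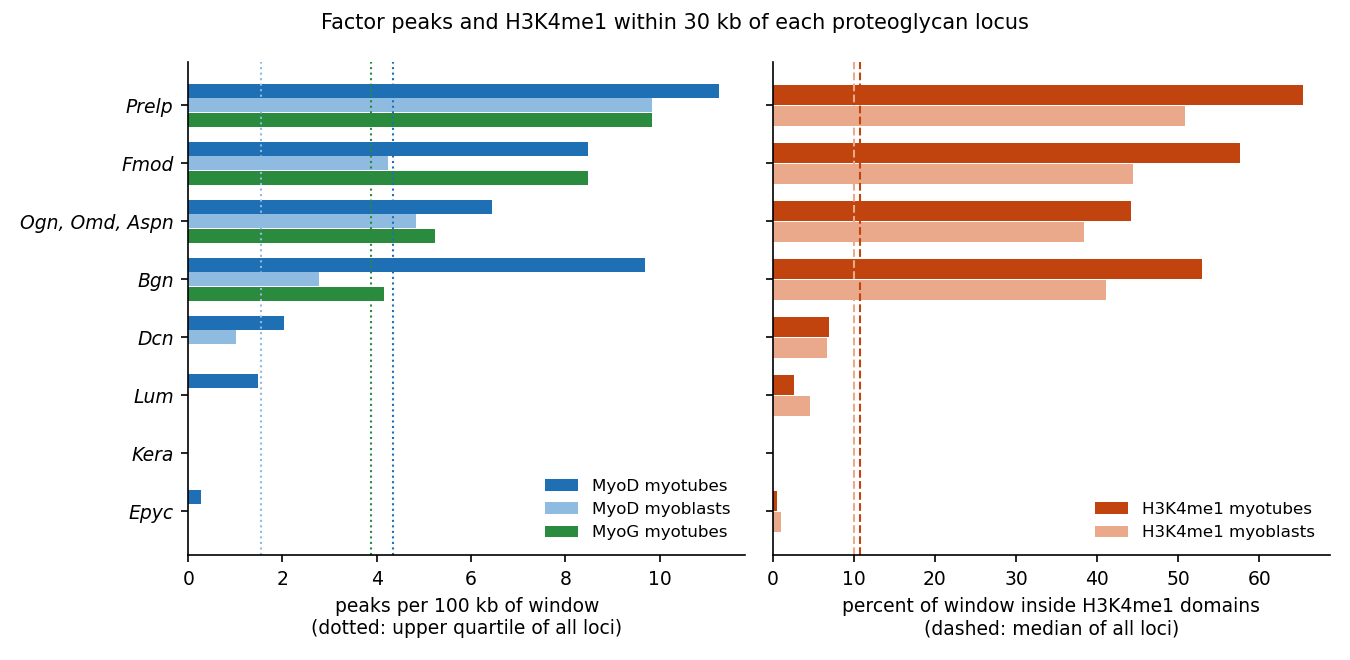
MyoD and MyoG peaks per 100 kb of window (left) and percent of the window inside H3K4me1 domains (right) for each proteoglycan locus with 30 kb on each side, with dotted lines (left) at the upper quartile and dashed lines (right) at the median of all loci. Prelp, Fmod, Bgn and the shared Ogn, Omd and Aspn locus exceed the line of every list, and Dcn, Lum, Kera and Epyc stay under the dotted and the dashed lines.

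Single peaks show where this binding lay. Beside Prelp, the strongest MyoD peak lay beyond the neighbouring gene Optc, 16.4 kb from the Prelp locus (mm9 chromosome 1, 135789301 to 135790496). It had a deposited score of 3100 in myotubes, where 0.141% of the list scored higher, 3100 in myoblasts and 2045 for MyoG. An H3K4me1 domain of 15 kb (135785601 to 135800599) enclosed it in myotubes, with 788 ChIP reads against 189 control reads and a deposited fold of 4.10. Another peak on the Fmod side of Prelp (135837746 to 135839082) scored 970 for MyoD in myotubes, 939 in myoblasts and 987 for MyoG. Peak scores are the authors' and are read only within a list.

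Past Fmod, a MyoD peak at 135967163 to 135968796 scored 3100 in myotubes and 1351 in myoblasts, and the MyoG peak there scored 1641. It lay 22.3 kb from Fmod and nearer to Btg2, a growth-inhibiting gene whose locus begins 26.6 kb past Fmod. In myotubes it sat in a single H3K4me1 domain of 25.2 kb (135950001 to 135975199) with 1361 ChIP reads against 333 control reads. The MyoD myotube peaks farther along (135973807 to 135974503 and 135974536 to 135975236) lay inside the Btg2 locus. Inside the Fmod locus itself the lists held 1 MyoG peak (135935764 to 135936362, score 112) and no MyoD peak. The strong peaks of the chromosome 1 pair therefore lay outside both genes.

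On chromosome 13, 3 MyoD myotube peaks stood out by their score. The first (49565582 to 49567041) scored 1487 in myotubes, 480 in myoblasts and 828 for MyoG. The peak at 49580586 to 49581267 scored 1491 in myotubes, 293 in myoblasts and 767 for MyoG, and the peak at 49587344 to 49588751 scored 1454, 1313 and 306. These last 2 lay in 1 H3K4me1 domain of 18.4 kb in myotubes (49570601 to 49588999). A MyoD peak farther along (49649670 to 49650336) scored 903 in myotubes and 990 in myoblasts, with 344 for MyoG. Because 5 genes carry the same deposited locus, none of these peaks was assigned to Ogn, Omd or Aspn alone.

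Bgn had a MyoD peak 2.82 kb before the locus (chromosome X, 70724836 to 70726150) with a score of 1364 in myotubes, 508 in myoblasts and 227 for MyoG. A weak MyoD peak lay over the start of the locus in myotubes (70728746 to 70729404, score 74.9) with no overlapping peak in the other lists. A further one inside the locus (70730054 to 70730815) scored 177 and overlapped a MyoG peak of 60.7. The strongest MyoD peak of the window, 2543 in myotubes, lay 29.0 kb away (70770303 to 70772513), inside the locus of the neighbouring gene Atp2b3. Dcn had 1 MyoD peak inside its locus (chromosome 10, 96978952 to 96979604), which scored 92.5 in myotubes and 236 in myoblasts and overlapped no MyoG peak.

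**Figure D5:**
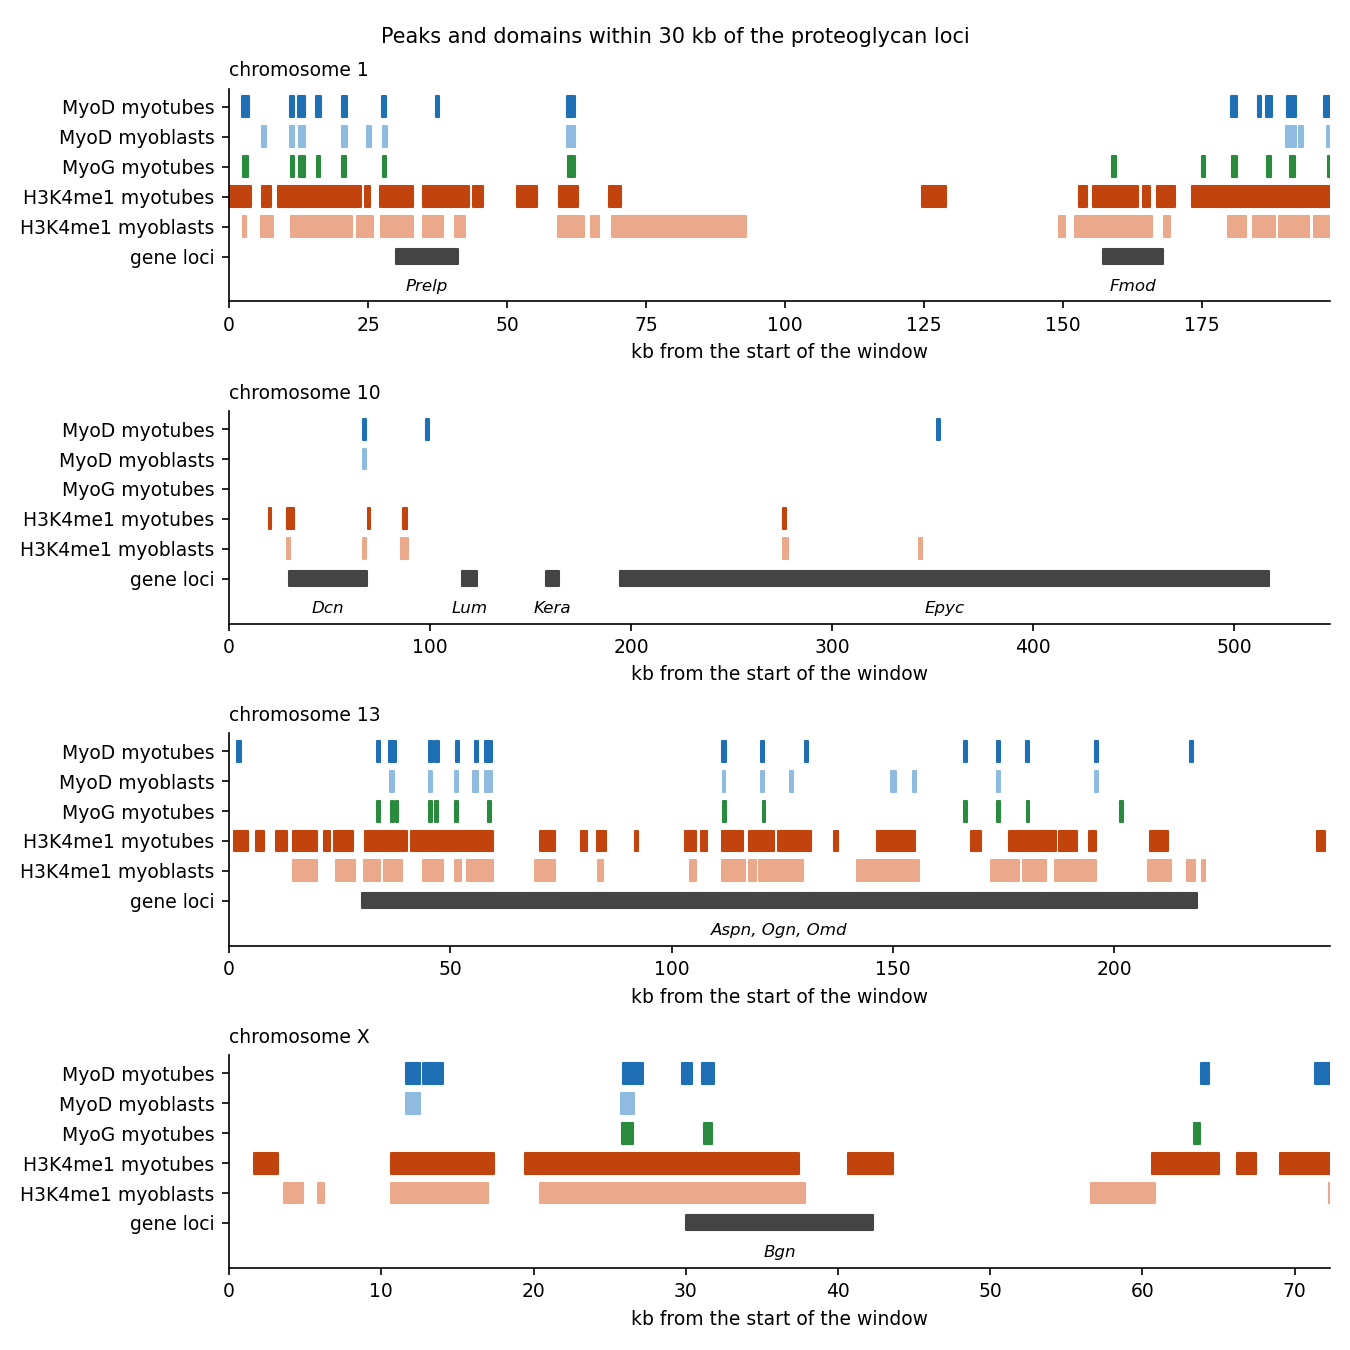
MyoD and MyoG peaks, H3K4me1 domains and gene loci along the 4 regions, in kb from the start of each region (loci with 30 kb on each side), showing only peaks and domains within 30 kb of a proteoglycan locus, with narrow ones drawn at a minimum width. Factor peaks crowd around Prelp, past Fmod, in the shared Ogn, Omd and Aspn locus and at Bgn, and 3 MyoD myotube peaks and 0 MyoG peaks are drawn on chromosome 10.

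Peaks near the family were shared across lists as follows. Of 40 MyoD myotube peaks within 30 kb of a member, 21 (52.5%) overlapped a MyoD myoblast peak by 1 bp or more, against 34.1% of the whole list. A MyoG peak was overlapped by 26 (65%), against 66.9%, and an H3K4me1 domain of myoblasts by 34 (85%), against 61.6%. Of 29 MyoG peaks, 24 (82.8%) overlapped a MyoD myotube peak, against 77.6%. Of 25 MyoD myoblast peaks, 19 (76%) overlapped a MyoD myotube peak, against 73.9%. These shares were not tested.

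Genes beside the family in its clusters were read from the same tables. On chromosome 1, Optc, a class III proteoglycan known from the eye, had 2.37 FPKM in pHAN_DRR1.2 and 3.50 FPKM in pHAN_GFP (-0.42). Btg2 had 12.5 FPKM in both pHAN libraries, and 9.45 FPKM in DRRi against 5.19 FPKM in GFPi (0.76). Myog, whose locus lies past Fmod on the same chromosome, moved the other way from Prelp and Fmod in the pHAN experiment, at 65.8 FPKM in pHAN_DRR1.2 and 26.3 FPKM in pHAN_GFP (1.29), and had 2.61 FPKM in DRRi and 10.2 FPKM in GFPi (-1.64). On chromosome 13, Ecm2, a leucine-rich matrix protein, had 1.48 FPKM in pHAN_DRR1.2 and 2.03 FPKM in pHAN_GFP (-0.29). Cenpp, the centromere protein gene around the cluster, had 7.25 FPKM in pHAN_DRR1.2 and 7.95 FPKM in pHAN_GFP (-0.12), and 9.50 FPKM in DRRi and 9.56 FPKM in GFPi. Neighbours that are not matrix genes, Nol8 (-0.20), Bicd2 (-0.10), Ippk (-0.07) and Iars (-0.03), lay nearer 0 in the pHAN experiment than Ogn, Omd and Aspn. Beside Bgn, Haus7 had 21.6 FPKM in pHAN_DRR1.2 and 21.2 FPKM in pHAN_GFP (0.03), and Atp2b3, Zfp92 and Trex2 were under 0.1 FPKM in all 4 libraries. So was Chit1 on chromosome 1, and 4921510H08Rik, which shares the Epyc locus, was listed at 0 in all 4.

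Enzymes that build the sugar chains of these proteins were read as lists. Of 23 genes of chondroitin and dermatan sulphate synthesis, 20 were kept in DRRi against GFPi, with a median of 0.11. By 1.5-fold or more 2 were higher, against 4.66% of all genes, and 2 lower, against 3.5%. Chst15, which adds sulphate to chondroitin, had 10.8 FPKM in DRRi and 5.82 FPKM in GFPi (0.79), and Ugdh, which makes the UDP-glucuronate used for the chains, had 90.9 and 56.6 FPKM (0.67). Csgalnact2, which starts chondroitin chains, had 5.74 FPKM in DRRi and 11.5 FPKM in GFPi (-0.89), and B4galt7, which acts on the linker to the protein, had 7.26 and 12.3 FPKM (-0.68). Of 7 keratan sulphate genes, 5 were kept, with 1 higher, against the same 4.66%, B4galt4 (6.24 FPKM in DRRi and 3.11 FPKM in GFPi, 0.82), and a median of 0.55. In pHAN_DRR1.2 against pHAN_GFP, neither list held a gene past 1.5-fold, and the medians were 0.00 and 0.02.

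Collagens of fibrils and of fibril surfaces and their processing proteins, read as 1 list, gave 10 of 12 genes kept in DRRi against GFPi, with a median of -0.12. Col1a1, a chain of type I collagen, was the 1 gene that was 1.5-fold or more higher, against 4.66% of all genes, at 14.2 FPKM in DRRi and 4.32 FPKM in GFPi (1.51), and the authors' deposited table gave q = 0.000146. In pHAN_DRR1.2 against pHAN_GFP, 11 of 12 were kept, with a median of -0.16 and 2 lower by 1.5-fold or more, against 0.654% of all genes. Col12a1, a collagen at fibril surfaces, had 117 FPKM in pHAN_DRR1.2 and 201 FPKM in pHAN_GFP (-0.77). Col14a1, of the same kind, had 0.818 FPKM in pHAN_DRR1.2 and 2.43 FPKM in pHAN_GFP (-0.92), so it passed the filter only through pHAN_GFP. For Col14a1 the authors' deposited table gave q = 4.32e-05. Of 8 other relatives of the family, 4 were kept in the pHAN experiment with a median of -0.31 and 2 in the RNAi experiment with a median of 0.40, and 0 passed 1.5-fold in either.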

How the data were processed

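PolyA RNA-seq of 4 libraries and ChIP-seq of 5 samples of C2C12 cells were used, and 2 ribosome-depleted RNA samples were not analysed here. The authors deposited 1 expression table per experiment with an FPKM value per coding sequence (24333 coding sequences) and their own p-value and q-value, per the file headers. The submitters' processing notes name TopHat, SICER and bedtools without versions, and mm9. The tool behind the expression tables is not given in the sources used here. MACS is named for the MyoD and MyoG peaks, per the file headers, and each peak has a deposited score. H3K4me1 domains carry the deposited count of ChIP and control reads and a fold, which is the authors' ratio. The 2 runs named per factor sample came as 1 list, and whether runs were pooled before calling is not given in the sources used here. The tables call the treated conditions by other names than the labels do. The labels tie each table to 2 samples, so the condition not named for GFP was taken as DRRi or pHAN_DRR1.2, and every treated value rests on this match.

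FPKM was summed per gene symbol, genes averaging at least 1 FPKM over both libraries were kept, and changes are log2 with a pseudocount of 1. With 1 library per group no test across genes was made, and p-values and q-values are those of the authors' deposited tables. Summed FPKM was 383311 to 411626 per library and 10516 to 10694 genes reached 1 FPKM. Read depths are unknown. The lists held 39700 MyoD peaks in myotubes and 18141 in myoblasts, 35380 MyoG peaks, and 70587 H3K4me1 domains in myotubes and 66863 in myoblasts. Peaks were assigned within 30 kb of a locus (10 and 100 kb as alternatives), with overlap from 1 bp, and densities are peaks per 100 kb. Background shares are over 20568 pairs of a gene and a locus. Promoter windows of 250 bases came from RefSeq. The counting was tested on simulated data.

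The genes and lists were chosen with earlier results of these data known. The genes named are the 10 proteoglycan genes, neighbours within 100 kb of a cluster, Myog, and list genes at an average of at least 1 FPKM and a change of 1.5-fold or more. Python 3.11.15, numpy 2.4.6, pandas 2.3.3 and matplotlib 3.10.9 were used.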

Additional observations from a re-analysis of the deposited data

How the results depend on the processing

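Alternatives were a pseudocount of 0.1, the most abundant coding sequence alone, no filter, a mean of 5 FPKM or more, peaks within 10 or 100 kb, the stronger part of each peak list, and an overlap of 50% of the smaller peak. Each member has 1 coding sequence, so taking the most abundant one gives the same values. Of 40 summary values under these, 36 stayed within the limits, 1.5 times for a count and 0.1 for a median change. With a pseudocount of 0.1, 1 member was 1.5-fold or more higher in DRRi (Prelp, 0.59), against 0. The median change in DRRi was 0 with no filter and -0.17 with a mean of 5 FPKM or more, where 2 members remained, against 0.27. In pHAN_DRR1.2 the median was -0.33 with no filter, against -0.58. Fmod passed 1.5-fold lower in pHAN_DRR1.2 at -0.65 with a pseudocount of 0.1. Of 42 recomputed changes of single genes, 37 stayed within 0.1 and on the same side of 1.5-fold. No setting could reverse a direction, since a pseudocount added to both libraries keeps the sign of a change. The filter settings and the coding sequence setting leave a gene's own value as it is, so only the pseudocount could move a change. Under that alternative 5 moved, Fmod and Prelp in DRRi, and Dcn, Aspn and Fmod in pHAN_DRR1.2. Peak counts of single genes moved in 73 of 150 cases, and the MyoD counts of Fmod fell to 0 at both stages within 10 kb. The number of genes with a MyoG peak was 6 within 10 kb and 7 within 100 kb. For MyoD in myotubes it was 7 within 10 kb, 10 within 100 kb and 6 with only the peaks at or above the list's median score, against 9. For MyoD in myoblasts it was 6 within 10 kb and 10 within 100 kb, against 7.

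No paired analysis was possible because each group held 1 library. With 1 library per group no replicate was left out. FPKM gives no read depth, so a gene listed at 0 has no upper limit here.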

Other observations

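Genes of signalling proteins that bind or answer to these proteoglycans, read as a list of 16, gave 12 kept in DRRi against GFPi, with a median of -0.12 and 3 higher by 1.5-fold or more, against 4.66% of all genes. Egfr, a receptor bound by decorin, had 8.32 FPKM in DRRi and 3.93 FPKM in GFPi (0.92). Tlr2, a receptor for soluble biglycan, had 4.78 FPKM in DRRi and 2.65 FPKM in GFPi (0.66), and Tgfb2, a TGF-β ligand, had 10.2 and 6.40 FPKM (0.60). In pHAN_DRR1.2 against pHAN_GFP the median was -0.03 and 0 passed 1.5-fold, with Tlr2 at -0.57 and Tgfb2 at -0.51. Tlr2 had 2.00 FPKM in pHAN_DRR1.2 and 3.44 FPKM in pHAN_GFP. Its plain ratio was past 1.5-fold, and it fell short only with the pseudocount of 1.

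Among 11 large and other matrix proteoglycans, 4 were kept in DRRi against GFPi with a median of -0.04, and 0 passed 1.5-fold. In pHAN_DRR1.2 against pHAN_GFP, 4 were kept with a median of 0.02. Spock2, a secreted proteoglycan of the testican kind, was 1.5-fold or more lower in pHAN_DRR1.2, the 1 of 4 to be so, against 0.654% of all genes, at 23.2 FPKM against 35.5 FPKM in pHAN_GFP (-0.59), with q = 0.0411 in the authors' deposited table. Spock1, also a testican and under the filter, had 0.355 FPKM in pHAN_DRR1.2 and 0.0743 FPKM in pHAN_GFP, and the authors' deposited table gave 1 of its 5 coding sequences q = 0.0348 in the higher direction.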
